A study of Capra hircus with 4 samples.

Results

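Contractile smooth muscle nuclei of the goat ovary were picked out by their transcripts. A nucleus was a member if it held at least 800 unique molecular identifiers (UMIs, each standing for 1 captured RNA molecule), at least 1 UMI of 4 or more of the 8 contractile genes ACTA2, MYH11, TAGLN, MYLK, CNN1, ACTG2, DES and LMOD1, and no UMI of NOTCH3 or RGS5, a pair of genes typical of pericytes and other mural cells of small vessels. This rule took 1545 of the 48332 deposited nuclei (3.20%), or 3.71% of the 41606 nuclei with at least 800 UMIs. Because these 10 genes chose the members, their levels are given as a description and never as a test.

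The nuclei came from the ovaries of 4 female goats (Capra hircus) of about 3 years, each sequenced as 1 droplet-based library. The 2 Du'an goats belonged to a group with litters of 1 kid and the 2 Nubian goats to a group with litters of 3, so that breed and litter size cannot be told apart. All 4 had carried a device releasing progesterone (300 mg) for 17 days to synchronise oestrus, and none was given further hormones to raise ovulation. The libraries held 40573246, 60566681, 71613892 and 52783453 UMIs in Du'an 1, Du'an 2, Nubian 1 and Nubian 2, the order in which values are listed throughout.

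In the ovary, smooth muscle lies in the walls of arteries, in bundles of the stroma and in the outer theca around follicles. It contracts when calcium entering through voltage-gated channels or leaving internal stores activates myosin light chain kinase, and it relaxes when cGMP signalling lowers calcium and myosin phosphatase removes the phosphate from the light chain. The genes of the contractile apparatus are switched on together by serum response factor with its muscle coactivator myocardin.

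The 4 goats contributed 365, 175, 782 and 223 members. As a share of nuclei with at least 800 UMIs this was 4.76% in Du'an 1 (exact Clopper-Pearson 95% interval 4.29 to 5.26), 1.75% in Du'an 2 (1.5 to 2.03), 5.18% in Nubian 1 (4.83 to 5.55) and 2.52% in Nubian 2 (2.21 to 2.87). Each breed thus had 1 goat near 5% and 1 near 2%, and the breeds overlapped. The mean share was 3.85% ± 1.88 (SD, n = 2) in Nubian and 3.25% ± 2.13 (SD, n = 2) in Du'an goats, a difference of 0.598 percentage points (2-sided exact permutation p = 0.667, where the smallest p that 2 goats against 2 can give is 0.333). The difference changed sign, to -0.129 points, when members that also held 3 or more markers of another cell type were left out, and without Du'an 2 (-0.905) or Nubian 1 (-0.732). The intervals cover counting error only, and in these data fewer nuclei of a kind and less RNA per nucleus cannot be told apart.

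**Figure D1:**
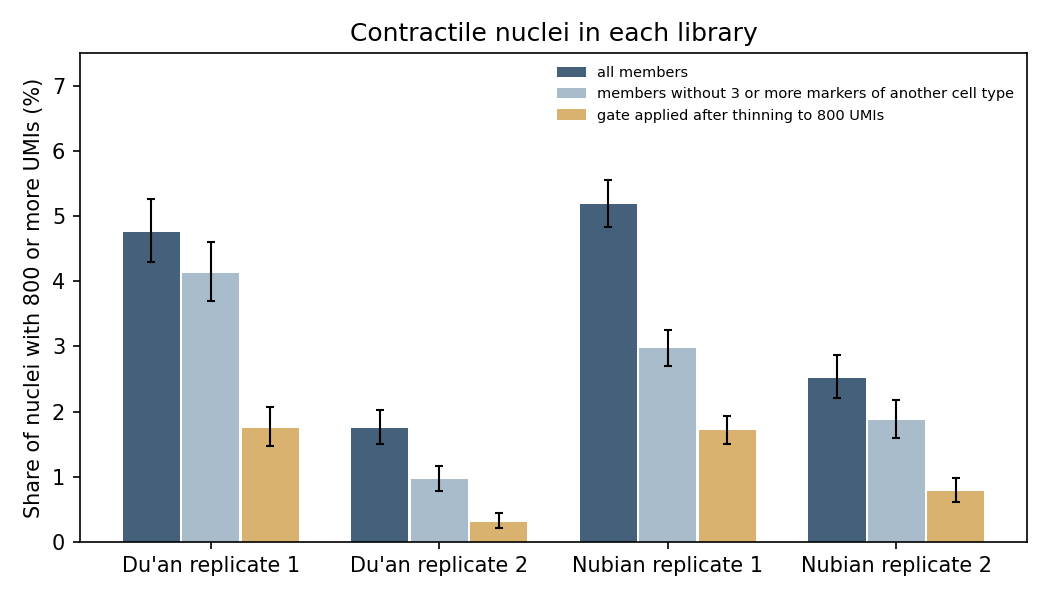
Share of nuclei with at least 800 UMIs that met the contractile rule, in percent, in each of the 4 libraries (dark bars), the same without members holding 3 or more markers of another cell type (pale bars) and with every nucleus thinned to 800 UMIs before the rule (yellow bars), with exact 95% binomial intervals. Du'an 1 (4.76%) and Nubian 1 (5.18%) lie above Du'an 2 (1.75%) and Nubian 2 (2.52%), and the same 2 goats are the lower ones in all 3 sets of bars.

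Among the genes of the rule, ACTA2, the smooth muscle actin, was held by 89.3, 86.3, 94.0 and 90.1% of the members and MYLK, the myosin light chain kinase, by 93.4, 88.6, 96.0 and 87.9%. DES, the muscle intermediate filament protein desmin, was held by the fewest members, 16.2, 17.7, 15.9 and 18.4%. The summed level of the 8 genes was 4543, 2411, 4411 and 2548 CPM (the UMIs of a goat's nuclei scaled to a fixed total; sums over a list are given before TMM scaling throughout) in the members and 341, 331, 468 and 248 CPM in all other nuclei with at least 800 UMIs. Du'an 1 and Nubian 1, the libraries with the larger shares of members, also had the higher summed levels.

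The median member held 2016, 4336, 2818 and 2527 UMIs, against 2760, 3828, 2892 and 3048 over all nuclei with at least 800 UMIs. Depth was uneven within a library: the 10 deepest members held 17.1, 31.2, 9.91 and 32.7% of all member UMIs, and the deepest nucleus in Nubian 2 held 122603 UMIs. Between 54 and 131 cell barcodes were shared by each pair of libraries, but no barcode was a member in both libraries of a pair. Markers of another cell type, at least 3 of a list, were present in 13.2, 45.1, 42.7 and 26% of the members and in 41.1, 78.0, 73.6 and 43.3% of the other nuclei. For each result below the level is a sum over the members of a goat, so that deep nuclei weigh more, and results that rest on a few nuclei are given with that number.

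Moving along the number of contractile markers, 1809 nuclei held exactly 3 (without NOTCH3 or RGS5) and fell just outside the rule, 826 held exactly 4 and fell just inside it, 423 held 5, 200 held 6, 72 held 7 and 24 held all 8. Across this edge the mean level over goats of CALD1, an actin and calmodulin binding protein of the thin filament, was 1094 ± 184 CPM (SD, n = 4) with 3 markers and 1668 ± 192 CPM with 4. TPM2, a tropomyosin, was at 85.3 ± 22.5 and 168 ± 48.5 CPM. The adrenergic receptor ADRA1A was at 18.2 ± 7.82 and 42.5 ± 19.5 CPM, with 1.78 ± 0.708 CPM in nuclei without a marker and 87.9 ± 16.8 CPM in those with 6 or more. The mean levels of these 3 genes thus changed by degrees with the number of markers, across the edge of the rule. Whether levels in single nuclei were graded, or the mix of nuclei changed, was not tested. FSHR, the follicle-stimulating hormone receptor of granulosa cells, went from 1161 ± 203 CPM without a marker and 1874 ± 498 CPM with 1, through 1013 ± 513 and 784 ± 298 CPM at the edge, to 445 ± 175 CPM with 6 or more.

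**Figure D2:**
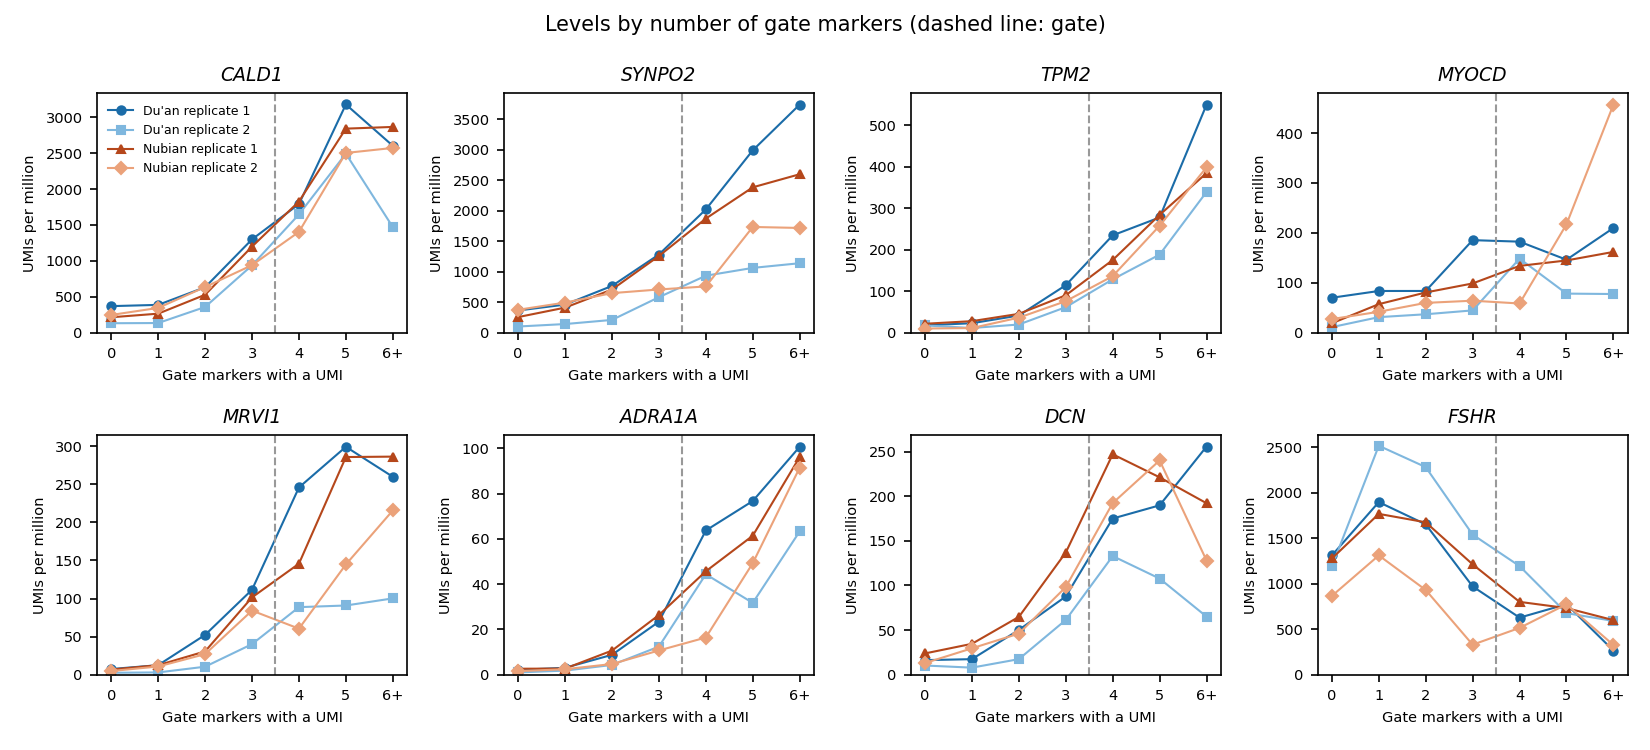
Level in CPM (linear axes, 1 panel a gene) of 8 genes that the rule did not use, against the number of the 8 contractile markers held by a nucleus, with 1 line and symbol for each goat; the dashed line is the edge of the rule between 3 and 4 markers. The mean of CALD1 goes from 240 without a marker through 2756 with 5 to 2379 with 6 or more, and that of TPM2 from 16.5 without a marker to 418 with 6 or more.

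The first comparison asked what else the members expressed that the rest of the ovary did not. The members carried more RNA for nearly the whole contractile apparatus, for the cGMP kinase PRKG1 and its substrate MRVI1, for adrenergic, relaxin, endothelin and prostaglandin receptors, and for collagens. They carried less RNA of granulosa, lymphatic, T cell and macrophage genes. Summed UMIs of the members were compared with those of all other nuclei in the same 4 goats by the edgeR quasi-likelihood test with goat as a block, with Benjamini-Hochberg adjustment over 15694 genes. After the genes of the rule were set aside, 3871 genes were called at an adjusted p under 0.05 (24.7% of those tested), 2165 higher (13.8%) and 1706 lower (10.9%) in the members. The median log2 fold change over all genes tested was 0.00, and levels below are in CPM after TMM scaling of the summed counts.

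Of the 24 other genes of the contractile apparatus and cytoskeleton, 23 were higher and none lower, with a median log2 fold change of 1.73. CALD1 was at 2164, 1768, 2413 and 1742 CPM in the members and 525, 206, 429 and 347 CPM in the other nuclei (log2 fold change 2.49, SE 0.18, edgeR adjusted p = 9.35e-05). TPM2 was at 293, 209, 267 and 196 CPM against 32.4, 16.9, 35.8 and 16.3 CPM (log2 3.32, SE 0.16, adjusted p = 1.15e-05). In each goat the members lay several-fold above the other nuclei for both genes, with no overlap between goats. ACTN1, which anchors actin filaments at dense bodies, was at 216, 199, 247 and 169 CPM against 34.9, 27.6, 33.6 and 40.5 CPM (log2 2.61). SYNPO2, an actin-bundling protein of muscle, was at 2461, 1005, 2230 and 1070 CPM against 565, 159, 510 and 446 CPM (log2 2.05), and its 2 lowest values in members came from Du'an 2 and Nubian 2. The member that did not pass the test was FHL1, a LIM protein of muscle, at 1.56 ± 0.525 CPM in the members and 3.72 ± 1.12 CPM elsewhere (SD, n = 4; log2 -1.08, adjusted p = 0.0902). VIM, the intermediate filament protein vimentin of mesenchymal cells, was called at a log2 fold change of 1.37, but up to 64.7% of its UMIs in a library lay in 1 nucleus. Thinning every nucleus to 800 UMIs before applying the rule gave -0.18 for VIM.

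**Figure D3:**
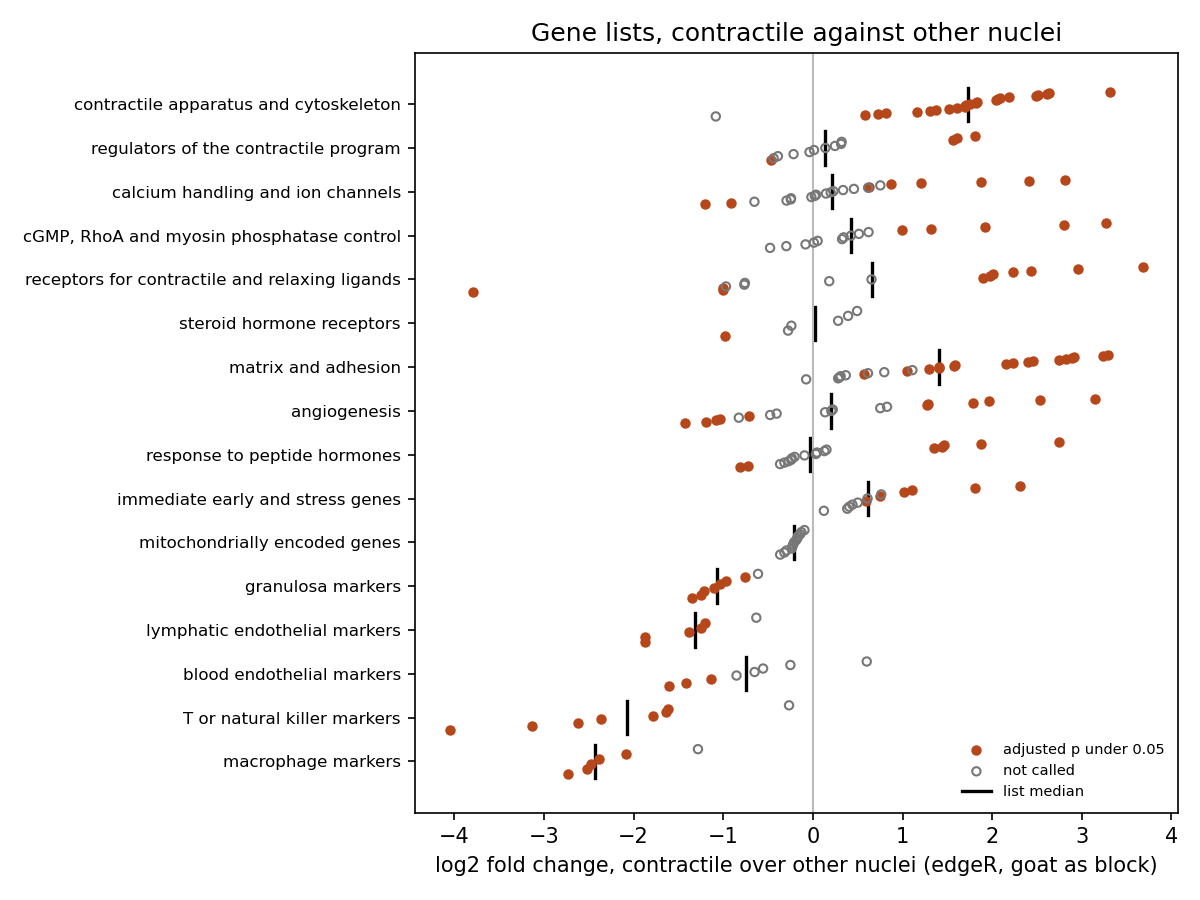
Log2 fold change of each tested gene of 16 named lists between contractile members and other nuclei, a row for each list, with filled points for genes called by edgeR at an adjusted p under 0.05, open points for genes not called and a vertical mark for the list median. The contractile apparatus (median 1.73, 23 of 24 higher) lies to the right, and the macrophage markers (median -2.44, 5 of 6 lower) to the left.

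Nuclei with 3 or more of 8 T and natural killer cell markers gave the background of free RNA for the share of nuclei with a UMI. CALD1 was found in 96.4, 92.6, 94.9 and 95.1% of the members, and in 78.9, 68.6, 80.3 and 76.2% after each was thinned to 800 UMIs. In the T or natural killer nuclei it was found in 14.3, 13.8, 32.2 and 25.1%, and in 4.08, 4.94, 13.6 and 6.22% after thinning, although their median depths of 3770, 2560, 3181 and 3867 UMIs exceeded those of the members in all but Du'an 2. MYOCD was found in 30.4, 36.6, 33.4 and 29.1% of the members and in 3.06, 2.67, 4.97 and 3.24% of the T or natural killer nuclei. FSHR was found in 39.2, 64.0, 53.6 and 39.0% of the members, but also in 35.7, 45.6, 49.5 and 25.1% of the T or natural killer nuclei. After thinning these shares of FSHR were 23.6, 26.9, 26.6 and 21.1% against 14.3, 21.6, 20.4 and 5.68%. As a ratio, CALD1 and MYOCD were thus further above the background than FSHR in every library.

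Besides MYOCD, the checks on the label that the rule did not use were SMTN, SYNPO2, KCNMB1, PLN, TPM2, MYL9, ITGA8 and CASQ2. The 8 that could be tested were all higher in the members, while CASQ2, a calcium-binding protein of muscle stores, was at 0 UMIs in the members of all 4 goats. SMTN, which marks contractile smooth muscle, was at 63.4, 44.5, 49.8 and 51.5 CPM in the members and 20.6, 10.3, 17.7 and 16.9 CPM elsewhere (log2 1.70, SE 0.16, edgeR adjusted p = 3.30e-04). MYL9, the regulatory light chain of smooth muscle myosin, was at 30.9, 53.7, 54.3 and 48.6 CPM against 5.63, 13.4, 17.8 and 9.80 CPM (log2 2.07). The smooth muscle label therefore held on genes outside the rule.

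Of 13 regulators of the contractile programme that could be tested, 3 were higher, 1 lower and 9 not called (median log2 0.14). MYOCD, the coactivator myocardin, was at 171, 102, 146 and 152 CPM in the members and 92.5, 25.1, 52.4 and 36.7 CPM elsewhere (log2 1.61, SE 0.20, edgeR adjusted p = 0.00137). SRF, its DNA-binding partner, was at 34.9, 28.6, 31.8 and 24.9 CPM against 10.2, 8.08, 11.6 and 10.7 CPM (log2 1.56), and FHL2, a LIM cofactor of this pathway, rose by 1.81. The members of every goat exceeded the other nuclei of every goat for these 3 genes. MKL2, another SRF coactivator, was lower at 389 ± 78.6 against 541 ± 122 CPM (SD, n = 4; log2 -0.47, adjusted p = 0.0135), a call that was lost without Du'an 2 (-0.44, adjusted p = 0.0539) or Nubian 1 (-0.48, adjusted p = 0.0564).

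Calcium handling was mixed, with 6 of 22 tested genes higher, 2 lower and 14 not called (median log2 0.21). CACNA1C, the pore of the L-type calcium channel, was at 598, 288, 511 and 246 CPM in the members against 175, 98.2, 125 and 54.6 CPM (log2 1.88, SE 0.13, edgeR adjusted p = 8.20e-05). SLC8A1, the sodium-calcium exchanger, was at 1576, 830, 1347 and 825 CPM against 1040, 336, 408 and 367 CPM (log2 1.20), and its value in the other nuclei of Du'an 1 overlapped the members of Du'an 2 and Nubian 2. The 2 inositol trisphosphate receptors that open calcium stores went opposite ways: ITPR1 was at 410 ± 92.0 against 269 ± 83.2 CPM (log2 0.63, adjusted p = 0.0117) and ITPR2 at 567 ± 146 against 1097 ± 391 CPM (log2 -0.92, adjusted p = 0.00161; SD, n = 4). The ITPR1 call was lost with a rule of 5 markers (0.71, edgeR adjusted p = 0.0793). KCNMB1, the smooth muscle subunit of the large-conductance potassium channel, and PLN, the brake on the calcium pump of the stores, rose by 2.81 and 2.41 from low levels of 0.932 and 4.30 CPM. The potassium channel KCNQ5 fell by 1.21 on the log2 scale.

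Of 15 genes of cGMP, RhoA and myosin phosphatase control, 5 were higher and none lower (median log2 0.42). MRVI1, the substrate through which cGMP kinase restrains calcium release, was at 249, 90.2, 225 and 99.5 CPM in the members and 26.8, 6.53, 24.7 and 13.2 CPM elsewhere (log2 3.27, SE 0.16, edgeR adjusted p = 1.41e-05). PRKG1, the cGMP kinase itself, was at 1562, 943, 1883 and 1183 CPM against 487, 184, 392 and 449 CPM (log2 1.93). In members and other nuclei alike the smaller MRVI1 values were those of Du'an 2 and Nubian 2. PDE5A, which breaks down cGMP, rose by 1.32, the myosin phosphatase subunit PPP1R12B by 1.00, and the phosphatase inhibitor PPP1R14A by 2.80, the last held by 4.21% of the members. With a rule of 5 markers PPP1R14A was not called (2.15, edgeR adjusted p = 0.0528). The 3 guanylate cyclase subunits tested, which make cGMP, were not called (GUCY1A2 0.51, GUCY1A3 0.34 and GUCY1B3 0.62; adjusted p = 0.404, 0.186 and 0.0575).

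Of 15 receptors for contractile and relaxing ligands that passed the filter, 7 were higher and 3 lower (median log2 0.65). ADRA1A, a noradrenaline receptor that contracts smooth muscle, was at 70.6, 45.7, 65.2 and 34.4 CPM in the members and 5.18, 2.98, 6.43 and 2.60 CPM elsewhere (log2 3.68, SE 0.17, edgeR adjusted p = 1.15e-05). RXFP1, the relaxin receptor, was at 67.4, 27.4, 151 and 25.5 CPM against 8.50, 3.39, 14.8 and 4.95 CPM (log2 2.96). Nubian 1 stood above the other goats for RXFP1 in both groups of nuclei. EDNRA, the endothelin receptor of vascular muscle, was at 49.2, 44.5, 60.5 and 32.6 CPM against 10.4, 4.32, 18.9 and 5.44 CPM (log2 2.44). PTGFR, the receptor for prostaglandin F, was at 39.6, 37.7, 95 and 39.1 CPM against 4.98, 6.33, 41.1 and 7.53 CPM (log2 2.23), so that the other nuclei of Nubian 1 reached the members of the remaining goats. The angiotensin receptor AGTR1 and the adrenergic receptor ADRA1B rose by 2.01 and 1.89. The ADRA1B call was lost with a rule of 5 markers (1.96, edgeR adjusted p = 0.0729). PTGIR, the prostacyclin receptor, was called at 1.97, but only 0.647% of the members held it and the call was lost without any 1 of the 4 goats (1.84 to 2.12). The neuropeptide Y receptor NPY1R fell by 1.00 on the log2 scale. The prostaglandin receptor PTGER4 (-1.01) was called lower at a mean under 5 CPM in the members, and it lost its call without any 1 goat. OXTR, the oxytocin receptor, was at 0 UMIs in the members of 3 of the 4 libraries.

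Among the 6 steroid hormone receptors 1 was lower and 5 were not called (median log2 0.02). ESR2, the estrogen receptor of granulosa cells, was at 34.1, 28.6, 53.7 and 25.5 CPM in the members and 49.6, 59.4, 122 and 53.9 CPM elsewhere (log2 -0.98, SE 0.15, edgeR adjusted p = 0.00284). ESR1, the other estrogen receptor, was at 357 ± 114 and 408 ± 54.9 CPM and PGR, the progesterone receptor, at 108 ± 38.9 and 85.4 ± 9.54 CPM (SD, n = 4; edgeR adjusted p = 0.254 and 0.292). For both receptors the goats of the members and of the other nuclei overlapped, and the share of these levels that was free RNA was not tested.

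Matrix and adhesion genes were raised, with 17 of 25 higher and none lower (median log2 1.41). COL1A1 was at 327, 387, 504 and 352 CPM in the members and 30.6, 29.2, 117 and 27.6 CPM elsewhere (log2 3.23, SE 0.27, edgeR adjusted p = 2.16e-04). COL1A2, the partner chain of type I collagen, was at 479, 594, 602 and 415 CPM against 50.3, 36.3, 117 and 36.1 CPM (log2 3.29). Every member sum was above every other sum for both chains, and Nubian 1 had the highest collagen level among the other nuclei. THBS1, the matrix protein thrombospondin, was at 904, 914, 996 and 1109 CPM against 203, 84.6, 117 and 223 CPM (log2 2.75), and CYR61, a matricellular protein, at 148, 209, 237 and 288 CPM against 29.6, 29.7, 26.5 and 37.1 CPM (log2 2.82). ITGA8, an integrin of smooth muscle, rose by 2.40. FN1, fibronectin, was called at 1.58, but it gave -0.48 when nuclei were thinned to 800 UMIs before the rule was applied.

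Some of these collagens also mark fibroblasts. Of the 6 collagen-producing fibroblast markers 5 were higher (median log2 2.65), and the list summed to 1518, 1463, 2077 and 1524 CPM in the members against 159, 122, 466 and 155 CPM, with COL1A2 or COL3A1 the most abundant. Of 7 stromal markers 6 were higher (median log2 1.97), and the list summed to 3703, 2560, 3986 and 3458 CPM against 1172, 1328, 944 and 1387 CPM, with DMD, the dystrophin gene that muscle also uses, or TSHZ2 the most abundant. PDGFRA, a receptor of fibroblasts, was held by 30.7% of the members at 153 ± 5.78 against 41.8 ± 15.4 CPM (SD, n = 4; log2 1.94, edgeR adjusted p = 2.87e-04). None of the markers of either list was at 0 in any library, and their part in the matrix result was not tested. Of 5 pericyte markers tested, PDGFRB and ABCC9 were higher (log2 2.31 and 1.71) and none was lower (median 1.48), while the list summed to 98.9, 48.9, 72.8 and 79.0 CPM in the members. In each library 3 of its 7 genes were at 0, NOTCH3 and RGS5 by the rule and 1 more that was not the same gene in all 4.

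Of 19 angiogenesis genes 6 were higher and 5 lower (median log2 0.21). ADAMTS1, a matrix protease that restrains vessel growth, was at 525, 483, 466 and 223 CPM in the members and 62.5, 43.4, 59.0 and 27.2 CPM elsewhere (log2 3.14, SE 0.13, edgeR adjusted p = 8.67e-06). The growth factor FGF1 and the chemokine CXCL12 rose by 1.96 and 1.79, whereas ANGPT2, an angiopoietin, and HIF1A, the oxygen-sensing factor, fell by 1.43 and 1.19 on the log2 scale. Among 18 genes of the response to peptide hormones 5 were higher and 2 lower (median log2 -0.03). IGFBP5, which binds insulin-like growth factors, was at 1594, 3002, 730 and 2256 CPM against 352, 176, 234 and 263 CPM (log2 2.75, SE 0.37, adjusted p = 0.00181). Du'an 2 had the highest and Nubian 1 the lowest level in the members, and the log2 fold change was 1.36 with every nucleus thinned to 800 UMIs. It was 0.88 and not called (adjusted p = 0.0636) with thinning before the rule was applied. IGF1 rose by 1.46 and FOXO1, a transcription factor abundant in granulosa cells, fell by 0.82.

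Of 13 immediate early and stress genes 6 were higher and none lower (median log2 0.61). NR4A1, a nuclear receptor induced within minutes of stimulation, was at 320, 215, 260 and 142 CPM in the members and 57.7, 52.3, 47.2 and 29.1 CPM elsewhere (log2 2.32, SE 0.12, edgeR adjusted p = 2.06e-05). EGR1, an early growth response factor, was at 214, 366, 175 and 243 CPM against 80.5, 69.1, 40.8 and 99.1 CPM (log2 1.81). For both genes every goat's members exceeded all other nuclei sums. HSP90AA1, a chaperone, was called at 1.02, but the call was lost with every nucleus thinned to 800 UMIs (0.27), with thinning before the rule (0.33), with the nucleus filter of the study (0.33), without the mixed nuclei (0.60) and with 5 markers (1.06; adjusted p = 0.0908 to 0.472). None of the 13 genes encoded by the mitochondrial genome was called (median log2 -0.21). In the members of Du'an 2, COX2 and ATP8 were at 0 UMIs and ATP6 at 2 UMIs, where COX2 was at 915, 1355 and 1044 CPM in the members of Du'an 1, Nubian 1 and Nubian 2. The other nuclei of Du'an 2 held 118, 0 and 87 UMIs of COX2, ATP8 and ATP6, so that the near absence of these 3 genes marked that library as a whole.

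Granulosa, lymphatic endothelial, T or natural killer and macrophage markers were mostly lower in the members, unlike the fibroblast and stromal markers above. Of 8 granulosa markers 7 were lower (median log2 -1.07), 5 of 6 lymphatic endothelial markers (-1.31), 7 of 8 T or natural killer markers (-2.08), 5 of 6 macrophage markers (-2.44) and 3 of 8 blood endothelial markers (-0.75), and none in these lists was higher. FSHR was at 561, 821, 725 and 508 CPM in the members and 1749, 1970, 1614 and 982 CPM elsewhere (log2 -1.25, SE 0.14, edgeR adjusted p = 8.57e-04). CYP19A1, the aromatase that makes estradiol, was at 4.76, 311, 676 and 65.8 CPM against 12.1, 498, 1605 and 222 CPM (log2 -1.22). The aromatase level of the members thus followed that of the surrounding nuclei across goats, lowest in Du'an 1 and highest in Nubian 1. The granulosa list still summed to 1038, 2641, 2520 and 1389 CPM in the members against 2822, 4679, 5349 and 2534 CPM, with FSHR or NR5A2 the most abundant and no marker at 0 in any library. The 2 theca markers and the 1 glial marker tested were not called (median log2 -0.91 and 0.52).

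By the size of the change, the 10 named genes that were highest in the members were KRT18, MRAP2, ADRA1A, WFDC1, KRT8, NEXN, AK5, MUSTN1, TPM2 and COL1A2. NEXN, an actin-binding protein of muscle, was at 162, 98.2, 259 and 108 CPM in the members and 14.4, 7.88, 22.2 and 10.4 CPM elsewhere (log2 3.51, SE 0.12, edgeR adjusted p = 3.89e-06). MRAP2, an accessory protein of melanocortin receptors, was at 111, 28.6, 67.8 and 18.4 CPM against 4.15, 1.62, 4.08 and 1.47 CPM (log2 4.17). WFDC1, a secreted protein known from smooth muscle, rose by 3.58, and AK5, an adenylate kinase, by 3.49. MUSTN1, a small muscle protein, was at 151, 948, 54.0 and 446 CPM against 42.4, 6.35, 11.4 and 47.4 CPM (log2 3.39, adjusted p = 0.0186), and it was no longer called without Nubian 2 (3.48, adjusted p = 0.06).

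The 2 keratins in this group, filament proteins of epithelia, were carried by few nuclei. KRT18 was at 41.2, 428, 12.1 and 85.9 CPM in the members and 3.47, 2.66, 1.20 and 5.44 CPM elsewhere (log2 4.59, SE 0.67, edgeR adjusted p = 0.00243), but only 1.81% of the members held it and up to 88.5% of its UMIs in a library lay in 1 nucleus. KRT8, at 5.55, 528, 25.3 and 85.9 CPM against 3.13, 6.94, 2.86 and 12.4 CPM (log2 3.56), was held by 2.20% of the members. Under the nucleus filter of the study, which removes the deepest nuclei, neither was called (KRT18 1.61, adjusted p = 0.151; KRT8 1.14, 0.354). Of 5 epithelial markers tested these 2 were higher, EPCAM was lower and 2 were not called (median log2 0.41). The EPCAM call was lost without Du'an 2 (-2.04, adjusted p = 0.0709) or Nubian 2 (-1.74, adjusted p = 0.145). It was also lost with the nucleus filter of the study (-1.46, edgeR adjusted p = 0.121) and with every nucleus thinned to 800 UMIs (-0.63, edgeR adjusted p = 0.737). The 6 epithelial markers summed to 58.2, 1008, 40.9 and 221 CPM in the members against 18.5, 34.5, 9.08 and 73.2 CPM, 1 of them was at 0 in each library but Nubian 2, and their part in the keratin result was not tested. Of the 2165 genes called higher, 137 (6.33%) had at least 50% of their UMIs in 1 nucleus in some library.

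The 10 named genes with the largest decreases were S100A8, S100A9, S100A4, C1QC, PLAC8, C1QB, C1QA, TYROBP, FCER1G and AIF1, all known from neutrophils, macrophages or other leukocytes. S100A8, a subunit of calprotectin, was at 0, 0.571, 0.562 and 14.8 CPM in the members and 16.4, 58.4, 11.5 and 534 CPM elsewhere (log2 -5.31, SE 0.27, edgeR adjusted p = 1.74e-05). C1QC, a chain of complement C1q made by macrophages, was at 2.38, 9.14, 18.3 and 68.7 CPM against 77.8, 171, 55.9 and 297 CPM (log2 -2.73). Nubian 2 had the highest level of both genes in members and in other nuclei. The remaining 8 fell by 2.42 to 5.11 on the log2 scale, with AIF1 the smallest and S100A9 the largest. Under the nucleus filter of the study AIF1 (-0.98), C1QB (-0.99) and FCER1G (-0.66) were not called (adjusted p = 0.159, 0.0750 and 0.197).

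The second comparison set the members against the 174 nuclei that met the contractile marker criterion but held a UMI of NOTCH3 or RGS5 (24, 24, 100 and 26). For the contractile machinery the 2 kinds of nuclei were not told apart, whereas the NOTCH3 or RGS5 nuclei carried more FRY, EBF1 and PDE3A, of which FRY alone kept its call without any 1 goat. edgeR called 23 of 9563 genes (0.241%), 2 higher (0.0209%) and 21 lower (0.220%) in the members, with a median log2 fold change of 0.01 over all tested. Without the filter on low counts the balance turned, with 216 higher and 157 lower, and DESeq2 called 22 higher and 58 lower. None of 23 contractile apparatus genes was called (median log2 0.08), nor any of 23 matrix (-0.72), 8 receptor (0.11), 6 steroid receptor (-0.19), 13 mitochondrial (0.39), 15 angiogenesis (-0.37), 17 peptide hormone response (0.05) or 13 immediate early genes (0.32). CALD1 was at 2260, 1881, 2506 and 1909 CPM in the members and 2598, 2395, 2356 and 2427 CPM in the NOTCH3 or RGS5 nuclei (log2 -0.20, SE 0.20, edgeR adjusted p = 0.920). TPM2 was at 255 ± 43.7 and 218 ± 105 CPM (SD, n = 4; log2 0.34, adjusted p = 0.895). The marker lists of other cell types held no called gene either, but only 2 of 7 pericyte markers (median -0.999) and no glial marker were tested. The 6 fibroblast markers had a median of -1.34, and COL1A2 was at 500, 631, 625 and 455 CPM in the members against 1586, 1187, 917 and 2682 CPM (log2 -1.42, SE 0.32, adjusted p = 0.175), with no overlap between the groups.

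EBF1, a transcription factor known from pericytes and adipocyte precursors, was at 119, 97.8, 141 and 34.4 CPM in the members and 1008, 617, 659 and 925 CPM in the NOTCH3 or RGS5 nuclei (log2 -3.12, SE 0.38, edgeR adjusted p = 0.0194). PDE3A, a cyclic nucleotide phosphodiesterase of vascular muscle, was at 190, 106, 225 and 201 CPM against 968, 643, 506 and 1188 CPM (log2 -2.17, adjusted p = 0.0215). No goat overlapped between the groups for either gene. FRY, a scaffold protein of the cytoskeleton, was at 94.4, 55.3, 39.1 and 78.5 CPM against 403, 358, 212 and 410 CPM (log2 -2.40, adjusted p = 0.00153), and it stayed called without any 1 goat. TRPC6, a receptor-operated cation channel, was at 135, 111, 68.9 and 72.7 CPM against 448, 451, 141 and 209 CPM (log2 -1.57), and MEF2C, a muscle and endothelial transcription factor, at 180, 115, 189 and 146 CPM against 390, 384, 356 and 399 CPM (log2 -1.29). The call of EBF1 was lost without Du'an 1 (-3.13) or Nubian 1 (-3.43), that of PDE3A without Du'an 1 (-2.10) or Du'an 2 (-2.01), that of TRPC6 without Du'an 1 (-1.51), Du'an 2 (-1.41) or Nubian 1 (-1.73), and that of MEF2C without any 1 goat (-1.40 to -1.14). All 4 were also not called without the mixed nuclei (-2.50, -1.61, -1.10 and -0.94), which were removed from the members but not from the NOTCH3 or RGS5 nuclei. TRPC6 was the only called gene of 19 for calcium handling, MEF2C of 12 regulators and PDE3A of 15 for cGMP and myosin phosphatase control (list medians -0.26, 0.04 and -0.14).

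The other named genes that were lower in the members were COL15A1, a basement membrane collagen (log2 -2.53), ECM2, a matrix protein (-2.56), AKAP6, a kinase anchor of muscle (-2.52), SEMA5B, a guidance protein (-1.90), PLCE1, a phospholipase (-1.58), and NKAIN2 (-1.47). ECM2 (-2.75 to -2.02), SEMA5B (-2.10 to -1.73), PLCE1 (-1.74 to -1.43) and NKAIN2 (-1.57 to -1.29) lost their calls without any 1 goat. COL15A1 and AKAP6 lost theirs without Du'an 1 (-2.50 and -2.23), Du'an 2 (-2.48 and -2.30) or Nubian 1 (-2.85 and -2.69). Without the mixed nuclei COL15A1 (-1.96), ECM2 (-1.95), SEMA5B (-1.50), PLCE1 (-1.17) and NKAIN2 (-0.77) were not called. NKAIN2 was at -0.065 with every nucleus thinned to 800 UMIs and -0.085 with the nucleus filter of the study. RIMS2, a synaptic vesicle release protein, was higher, at 521, 502, 348 and 303 CPM in the members against 233, 88.1, 150 and 61.9 CPM (log2 1.71, SE 0.27, edgeR adjusted p = 0.0430), and its call was lost without any 1 goat (1.48 to 1.97). The RIMS2 call was also lost without the mixed nuclei (1.41). The NOTCH3 or RGS5 nuclei were deeper, with medians of 4389, 5060, 5336 and 5832 UMIs. With each nucleus thinned to 800 UMIs, 14 of the 23 genes could be tested, and 10 were called in the same direction and none went the opposite way. Leaving out 1 goat left 1 call without Du'an 1, 5 without Du'an 2, 3 without Nubian 1 and 25 without Nubian 2.

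**Figure D4:**
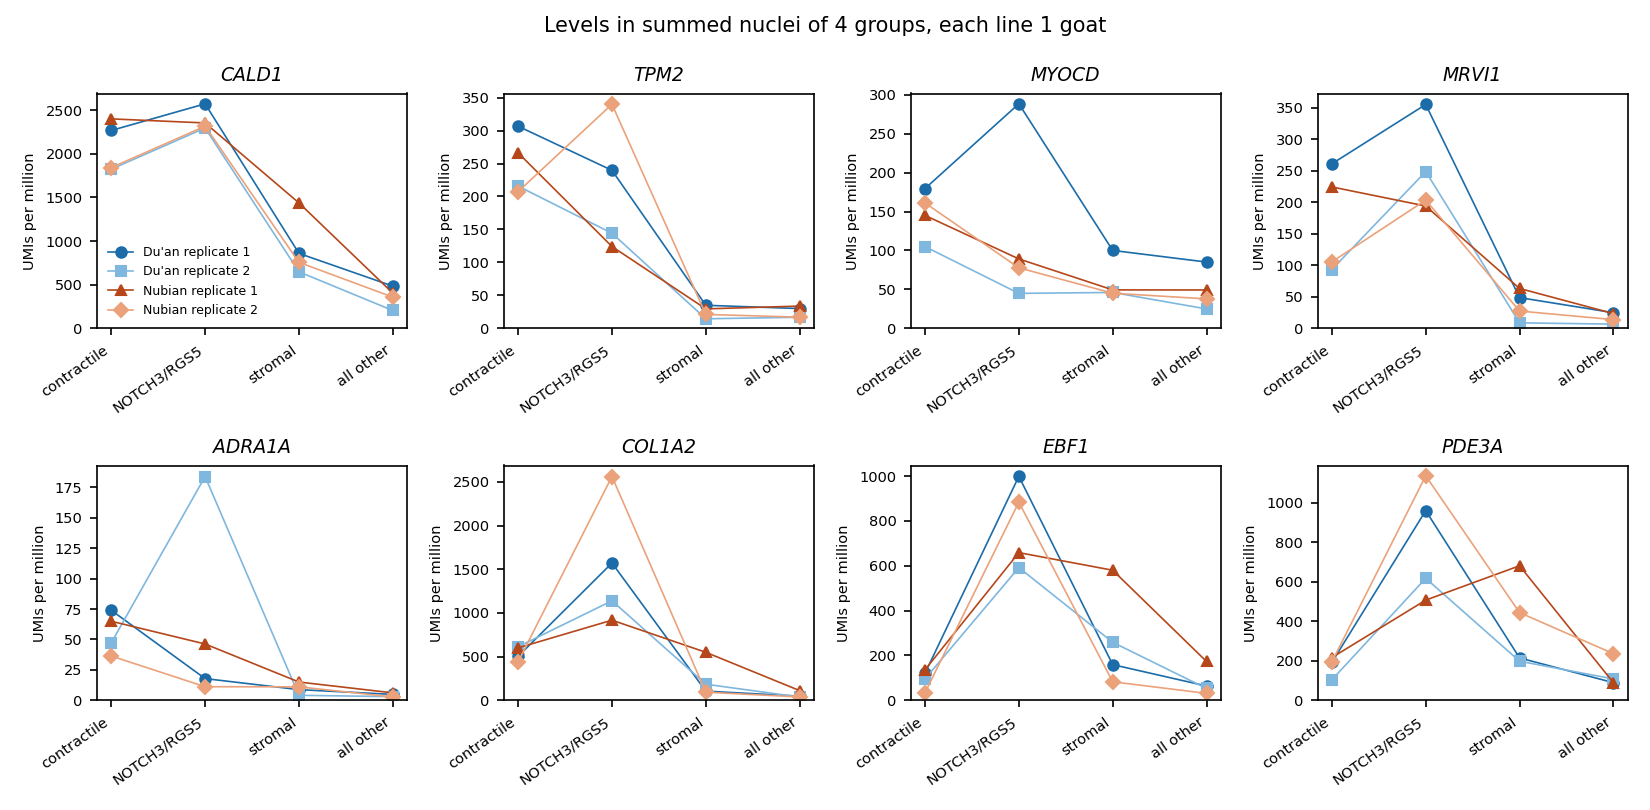
Level in CPM (linear axes, before TMM scaling, 1 panel a gene) of 8 genes in contractile members, NOTCH3 or RGS5 contractile nuclei, stromal-gated nuclei and all other nuclei, with 1 line and symbol for each goat. CALD1 lies between 1825 and 2402 in the members and between 203 and 483 in the other nuclei, while EBF1 and PDE3A are higher in the NOTCH3 or RGS5 nuclei than in the members of every goat.

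The third comparison was with 1139 stromal-gated nuclei (227, 247, 383 and 282), which held at least 4 of the 7 stromal markers measured and fewer than 2 of the contractile markers. The members again carried more of the contractile apparatus and of the adrenergic and relaxin receptors. Of 13 immediate early and stress genes 6 were higher, 7 were not called and none was lower. The stromal-gated nuclei carried more of 4 of 6 lymphatic endothelial markers, whereas none of 7 blood endothelial markers was called. edgeR called 1562 of 10806 genes (14.5%), 1243 higher (11.5%) and 319 lower (2.95%) in the members, with a median log2 fold change of 0.01. Leaving out 1 goat left 725 to 1420 calls, and the nucleus filter of the study left 414. The genes of both rules were set aside.

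Of 23 contractile apparatus genes 20 were higher and none lower (median log2 1.58). TPM2 was at 308, 218, 274 and 201 CPM in the members and 36.0, 14.5, 30.2 and 21.4 CPM in the stromal-gated nuclei (log2 3.34, SE 0.18, edgeR adjusted p = 2.00e-04). CALD1, at 2281, 1842, 2468 and 1788 CPM against 889, 658, 1478 and 771 CPM (log2 1.20), was nearer in the pair of groups. In both genes the members of each goat lay above the stromal-gated nuclei of all goats. NEXN and MRAP2 were higher here too (2.94 and 3.06). MYOCD, SRF and FHL2 were the 3 called among 12 regulators (1.32, 1.55 and 1.31, list median -0.07), and FHL2 lost its call without Du'an 2 (1.15, adjusted p = 0.0581) or Nubian 2 (1.26, adjusted p = 0.0551). Of 8 receptors 5 were higher and none lower (median 1.25). ADRA1A was at 74.3, 47.6, 66.7 and 35.3 CPM against 9, 4.09, 15.4 and 11.2 CPM (log2 2.50, SE 0.31, edgeR adjusted p = 0.00225), RXFP1 and PTGFR rose by 1.94 and 1.5, and the calls of EDNRA (1.10) and ADRA1B (1.39) were lost without Du'an 2 (0.81 and 1.48) or Nubian 2 (0.99 and 1.17), that of EDNRA also without Du'an 1 (1.14) and that of ADRA1B without Nubian 1 (1.44).

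Calcium handling had 1 gene higher, PLN (2.79), and 2 lower, the potassium channels KCNMA1 (-1.80) and KCNQ5 (-0.87), of 18 (median 0.10). KCNMA1 was at 764 CPM in the stromal-gated nuclei of Du'an 1 and 60.9 to 134 CPM in those of the other goats, against 26.8 to 70.2 CPM in the members, and both potassium channels lost the call without Du'an 2 (-1.72 and -1.01) or Nubian 2 (-2.13 and -0.84), and KCNQ5 also without Du'an 1 (-0.64). In cGMP and myosin phosphatase control 3 of 15 were higher, MRVI1 among them (2.30), and PDE3A was lower (-1.03; list median 0.01), which was lost without Du'an 2 (-1.07), Nubian 1 (-0.81) or Nubian 2 (-0.99). In the matrix list 6 of 23 were higher (median 0.55), and among the fibroblast markers 2 of 6 (0.69), but COL1A1 and COL1A2 (1.55 and 1.56) were no longer called without Du'an 1 (1.46 and 1.33), Du'an 2 (1.49 and 1.5) or Nubian 2 (1.17 and 1.32). Neither the 6 steroid receptors (median -0.24) nor the 13 mitochondrial genes (0.15) nor the 7 granulosa (-0.30) and 7 blood endothelial markers (-1.20) held a called gene.

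Immediate early and stress genes were higher in 6 of 13 and lower in none (median log2 1.01). NR4A1 was at 338, 224, 266 and 145 CPM in the members and 81.0, 89.0, 50.6 and 39.0 CPM in the stromal-gated nuclei (log2 1.91, SE 0.19, edgeR adjusted p = 0.00131). NR4A3, its relative, was at 196, 70.2, 89.7 and 61.4 CPM against 19.5, 13.6, 9.67 and 11.2 CPM (log2 2.84), and EGR1 rose by 1.26. The members of each goat lay above the stromal-gated nuclei of all goats for NR4A1 and NR4A3. The other named genes raised here were KRT18 (5.36), the coactivator CITED4 (3.68), the tubulin TUBB2A (3.47), the calcium-binding S100A11 (3.13), the differentiation inhibitor ID1 (2.91) and the galectin LGALS1 (2.75). These 6 were held by 1.81 to 8.61% of the members, with up to 48.3 to 88.5% of their UMIs in a library in 1 nucleus. Among angiogenesis genes 1 of 15 was higher and 1 lower (median -0.07), and among peptide hormone response genes IGFBP5 was higher (1.67) and LEPR and PRLR, the leptin and prolactin receptors, lower (-1.93 and -1.34) of 17 (median -0.19).

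On the lower side, ADGRL4, PTPRB and the transcription factor PROX1 of lymphatic vessels are endothelial genes. PROX1 was at 30.1, 11.3, 22.4 and 22.5 CPM in the members and 74.2, 30, 269 and 55.5 CPM in the stromal-gated nuclei (log2 -2.00, SE 0.41, edgeR adjusted p = 0.0160), and RELN, a secreted protein of lymphatic endothelium, at 30.1, 27.4, 53.5 and 14.0 CPM against 66.8, 134, 559 and 59.3 CPM (log2 -2.33). Nubian 1 had the highest stromal-gated value of both. Of 6 lymphatic markers 4 were lower (median -1.79), and the list summed to 170, 284, 179 and 263 CPM in the members and 286, 664, 1275 and 518 CPM in the stromal-gated nuclei, with MMRN1, RELN or CCL21 the most abundant and none at 0. The blood endothelial list summed to 223, 845, 910 and 417 CPM in the stromal-gated nuclei against 291, 163, 284 and 236 CPM in the members, and the part of these markers in the result was not tested. ADGRL4 (-2.95), PTPRB (-2.38), CYYR1 (-2.28), PDE4B (-2.25) and PROX1 lost their calls without Du'an 2 (-2.74, -1.96, -1.77, -2.40 and -2.16), whereas RASGRP3 (-2.63), TLL1 (-2.31), IL33 (-2.03) and RELN stayed called without any 1 goat. Without Nubian 1 the calls of MECOM, a transcription factor (-2.58), PTPRB and CYYR1 were lost (-2.42, -1.86 and -1.93). Of 4 macrophage markers C1QA was called higher (log2 1.37, list median 0.90). It was held by 2.20% of the members and was not called without Du'an 1 (1.42), Du'an 2 (1.14) or Nubian 1 (1.13).

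The last comparison asked whether the members differed between the breeds. No gene was called between the 2 Nubian and 2 Du'an goats within the contractile nuclei: edgeR called 0 of 11129 genes (0%), with 157 at an unadjusted p under 0.05, and DESeq2 called 6. In 2287 genes (20.5%) the goats of the breeds did not overlap, 1202 with the Nubian goats above and 1085 with them below, and the median log2 difference over all genes tested was 0.04. None of 23 contractile apparatus genes (median log2 -0.07), 12 regulators (0.14), 19 calcium genes (0.10), 15 cGMP genes (0.10), 9 receptors (0.52), 6 steroid receptors (0.09), 23 matrix genes (0.06), 15 angiogenesis genes (0.07), 17 peptide hormone response genes (0.01) or 13 immediate early genes (-0.32) was called. The 13 mitochondrial genes had a median of 0.19, and COX2 (1.39), ATP6 (1.48) and ATP8 (1.33) rested on Du'an 2, where they were all but missing.

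The named genes with the smallest unadjusted p are given as values. PITX1, a homeobox transcription factor, was at 60.0, 60.5, 2.63 and 3.77 CPM (Nubian against Du'an log2 -4.25, SE 0.42, edgeR adjusted p = 0.544), from 12, 17, 2 and 4 nuclei. MGP, a matrix protein that inhibits calcification, was at 36.7, 24.1, 146 and 100 CPM (log2 2.02, SE 0.39, adjusted p = 1.00), from 29, 20, 128 and 41 nuclei. HS3ST3A1, a heparan sulfate sulfotransferase, was at 9.17, 8.23, 40.3 and 36.5 CPM (log2 2.14). In these 3 genes both goats of a breed lay on the same side, but with 2 goats a breed the differences did not pass the test in edgeR, and DESeq2 called PITX1 alone of them. MMP9, a gelatinase of leukocytes, was at 0, 6.47, 117 and 86.8 CPM from 0, 3, 6 and 8 nuclei (log2 4.82, called by DESeq2 and not by edgeR), PPFIA2 at 7.5, 5.29, 27.8 and 29.6 CPM, and CLEC7A, a receptor of macrophages, at 0, 0, 7.30 and 13.2 CPM. The macrophage list, of which 5 genes were tested and none called (median log2 2.72), summed to 8.31, 41.3, 88.7 and 208 CPM in the members, with C1QA, C1QB or C1QC the most abundant and 1 marker at 0 in Du'an 1, and its part in these values was not tested. On the Du'an side MMP17, a membrane metalloprotease, was at 15.0, 18.2, 1.75 and 3.77 CPM, ADGRG6 at 80.0, 87.6, 32.4 and 16.4 CPM, PRKCB, a protein kinase C, at 82.6, 87.6, 42.7 and 28.3 CPM, and FGL2 at 25.0, 34.1, 8.18 and 8.80 CPM.

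**Figure D5:**
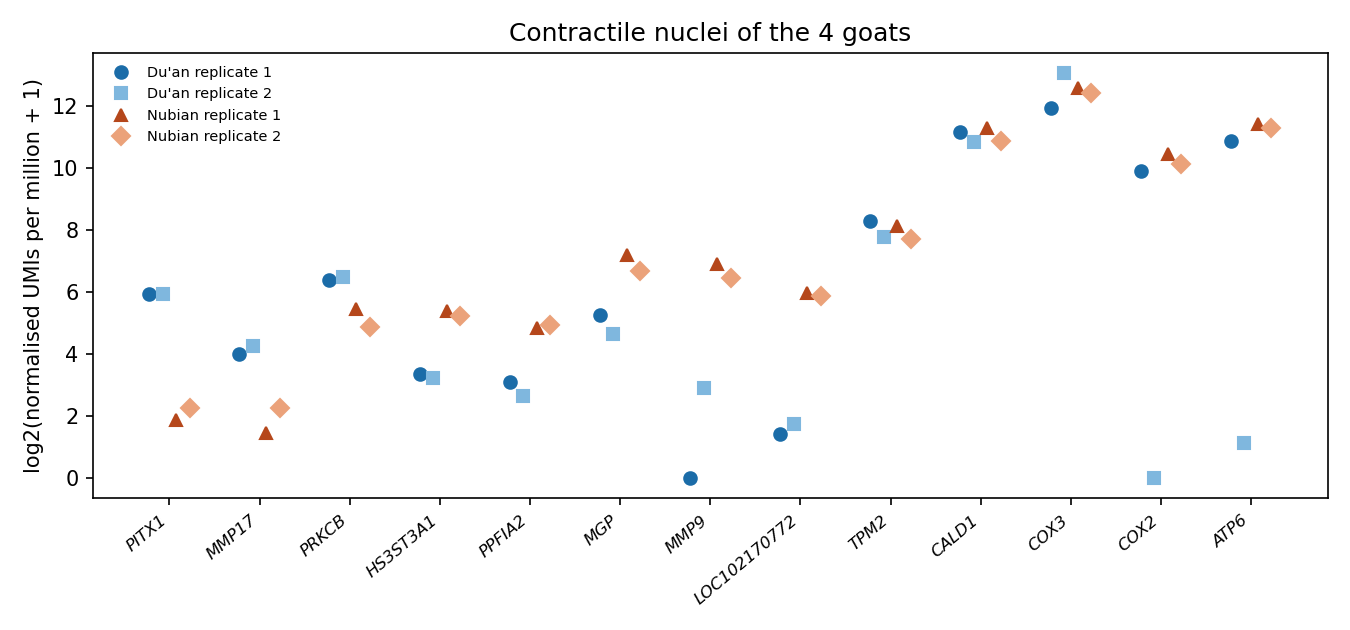
Level of 13 genes in the contractile members of each goat, as log2 of the TMM-scaled CPM plus 1, with a symbol for each of the 2 Du'an and 2 Nubian goats; the genes run from those with small unadjusted p between breeds to TPM2, CALD1 and 3 mitochondrial genes. PITX1 is near 60 CPM in both Du'an goats and under 4 CPM in both Nubian goats, COX2 and ATP6 are low in Du'an 2 alone, and none of the genes shown passed the edgeR test between breeds.

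Whether a breed difference in the members departed from that in the other nuclei was tested as an interaction with goat as a block. edgeR called 2 of 16916 genes (0.0118%), FABP5 and LOC102170772, and DESeq2 called 12. FABP5, a fatty acid binding protein, was at 3.93, 11.3, 20.2 and 482 CPM in the members and 61.9, 173, 33.1 and 785 CPM in the other nuclei (difference of log2 differences 3.24, SE 0.29, edgeR adjusted p = 0.0109). LOC102170772 was at 1.57, 2.26, 59.1 and 52.7 CPM against 74.7, 61.6, 89.6 and 87.5 CPM (4.43, SE 0.41, adjusted p = 0.0109). The FABP5 level of the members was high in Nubian 2 alone, and that of LOC102170772 was higher in both Nubian goats. In Nubian 2, 1 of 22 nuclei held 64.2% of the member UMIs of FABP5, and for LOC102170772 a single nucleus held 83.9% in Nubian 1 (26 nuclei) and 97.8% in Nubian 2 (3 nuclei). Neither gene was called without mixed nuclei (2.09 and 0.45), with the nucleus filter of the study (2.18 and 0.63), with thinning before the rule (2.00 and 1.88) or with every nucleus thinned (1.49 and 2.79), and LOC102170772 was also not called with 5 markers (3.28). No list held a called gene in this test.

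In the same test the genes C1QA, ARHGAP15, C1QC and TYROBP had the smallest unadjusted p among those with larger differences in the members (2.99, 1.94, 2.57 and 3.49, edgeR adjusted p = 0.0992 to 0.174), and the macrophage list had a median of 2.35. The differences of C1QA, C1QC and TYROBP changed sign with the nucleus filter of the study (-0.046, -0.22 and -0.27). They also did so without mixed nuclei among the members (-0.66, -1.36 and -1.02), with the other nuclei unchanged. C1QA was at 1.57, 9.61, 20.7 and 56.8 CPM in the members and 73.3, 172, 55.4 and 168 CPM elsewhere. On the opposite side stood NEGR1 (-2.61), TRHDE (-3.18), KIRREL3 (-2.42), LACTB (-1.16) and TPT1-2 (-0.92), with NEGR1, a neuronal adhesion protein, at 95, 70.1, 38.1 and 17.6 CPM in the members and 14.2, 15.4, 39.4 and 21.6 CPM elsewhere. None of these 9 passed the edgeR test.

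Across genes the members of different goats resembled each other about as much as they resembled other nuclei of their own goat. Pearson's r of the log2 levels was 0.912 ± 0.022 between goats (SD over 6 pairs), and within a goat it was 0.913 ± 0.026 with the other nuclei, 0.905 ± 0.022 with the stromal-gated and 0.868 ± 0.063 with the NOTCH3 or RGS5 nuclei (4 goats each). These correlations describe genes within pairs of sums, which differ in depth, and genes are not independent replicates.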

How the data were processed

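Nuclei were isolated from ovary and sequenced by the submitters with a droplet-based 3' chemistry. The values analysed are the UMI counts per gene and nucleus deposited by the authors, made with Cell Ranger (5.0.0 in the submitters' processing notes, 3.1.0 in the matrix headers); the annotation gave 28944 genes. Deposited tables of the authors' own granulosa comparisons were not used. The contractile members and the gene lists were chosen with earlier results of these data known.

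UMI counts were summed per goat over members, over other nuclei, over NOTCH3 or RGS5 nuclei and over stromal-gated nuclei, each sum needing at least 20 nuclei. The sums were tested with the edgeR quasi-likelihood test (edgeR 4.0.16, limma 3.58.1, R 4.3.3; TMM scaling, filterByExpr, Benjamini-Hochberg threshold 0.05 over all genes tested), with goat as a block where 2 sums came from the same goat. The 10 genes of the rule, and the 7 stromal markers in the stromal comparison, stayed in the fit but were left out of all calls. With goat as a block, the p-values measure how much the difference between 2 sums of the same goat varied over these goats. In the breed test without a block they measure the spread between goats of a breed. Python 3.11.15 with scipy 1.17.1 served for the share test and matplotlib 3.10.9 for the plots.

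Named genes were the genes of the rule, list members, and in each comparison of nuclei the 10 called genes in each direction with the largest log2 fold change among those with a gene symbol, at least 50 CPM in the higher group and the same direction in 4 goats. For breed they were the called genes, and where fewer than 5 were called in a direction the 5 with the smallest unadjusted p. The alternatives were DESeq2 1.42.0, RLE size factors, no filter on low counts, the fits with and without the block, a rule of 5 markers, thinning to 800 UMIs, the nucleus filter of the study, removal of mixed nuclei and leaving out each goat. The nucleus filter kept nuclei within 2 SD of the mean in UMIs and genes and under 20% mitochondrial UMIs. Thinning every nucleus to 800 UMIs while keeping the same members was added after the data had been seen. Doublets were not called separately, and nuclei with 3 or more markers of another type were counted as mixed. Mixed nuclei were removed from the members only. The nuclei they were compared with, and the denominator of the share, stayed unchanged. The fits were tested on simulated data: of 100 genes changed by 2 on the log2 scale, 91 were recovered for members against other nuclei, 98 against NOTCH3 or RGS5 nuclei, 100 against stromal-gated nuclei, 70 between breeds and 43 in the interaction. Of 100 genes changed by 1, 52, 42 and 69 were recovered in the 3 comparisons of nuclei in the same order. The changed genes were drawn only from those with higher counts, and the spread was fixed beforehand and equal for all genes. Recovery of sparse genes, or of genes with most UMIs in 1 nucleus, was therefore not covered. Some listed genes had no row under their symbol and were not analysed here. A few results on single genes are not reported here.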

Additional observations from a re-analysis of the deposited data

Results flagged for a closer look

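A pair of genes stood out because their breed difference in the contractile nuclei departed from that in the other nuclei by the interaction test. FABP5 had a difference of 3.24 between the log2 breed differences (edgeR adjusted p = 0.0109), and up to 68.1% of its UMIs in a member library lay in 1 nucleus. It was not called after removal of mixed nuclei (2.09), with the nucleus filter of the study (2.18), with thinning before the rule (2.00) or with every nucleus thinned to 800 UMIs (1.49). LOC102170772 had a difference of 4.43 (edgeR adjusted p = 0.0109), with 83.9 and 97.8% of its member UMIs in Nubian 1 and Nubian 2 in 1 nucleus. It was not called under the same settings (0.45, 0.63, 1.88 and 2.79) or with 5 markers (3.28). Without goat as a block neither gene was called (3.19 and 4.46).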

How the results depend on the processing

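Of 170 named fold changes and 2103 alternative values, 1765 kept their direction and side of the threshold, 269 lost and 54 gained a call, and 15 changed sign, leaving 161 results that never did. Counts of called genes moved more. For members against other nuclei (3871) they were 394 without goat as a block, 1861 with 5 markers, 2486 with thinning before the rule, 2056 with every nucleus thinned, and 2486 to 2831 when a goat was left out (2502 without Du'an 1, 2486 without Du'an 2). Against NOTCH3 or RGS5 nuclei (23) they were 80 by DESeq2, 373 without the count filter, 0 without the block, 58 with the filter of the study (3 goats), 39 with every nucleus thinned, and 1 to 25 without a goat. Against stromal-gated nuclei (1562) they were 21 without the block, 986 with thinning before the rule, 414 with the filter of the study, 453 with every nucleus thinned, and 725 (without Du'an 2; 798 without Nubian 2) to 1420 without a goat. Between breeds (0) they were 6 by DESeq2, 2 without the count filter and 0 to 1 without a goat, where the lone goat of a breed is assumed to vary like the others. For the interaction (2) they were 12 by DESeq2, 89 without the count filter, 0 without the block, 4 with 5 markers, 15 with thinning before the rule, 7 with the filter of the study, 43 without mixed nuclei, and 19 to 74 without a goat (51 and 19 without Du'an 1 and 2, 65 and 74 without Nubian 1 and 2). The difference in the share of members ranged from -0.905 to 2.10 points without a goat and was -0.129 without mixed nuclei.

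The share of called genes that were higher in the members against other nuclei was 55.9%, and 49.2% without the count filter, 38.3% with thinning before the rule, 45.8% without mixed nuclei and 87.3% without the block. Against stromal-gated nuclei it was 79.6%, and 68.9, 62.9, 63.8 and 95.2% in the same order, and 67.8% with every nucleus thinned. Against NOTCH3 or RGS5 nuclei it was 8.70%, and 57.9% without the count filter, 27.5% by DESeq2 and 28% without Nubian 2. Of 3432 calls against other nuclei that were also tested with every nucleus thinned, 1600 were called in the same direction and 159 had the opposite one. Against stromal-gated nuclei these were 305 and 8 of 531.

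The replicate numbers gave the 2 breeds a possible pairing, and deviations of same-numbered goats correlated at 0.363 over 11129 genes, but with 2 pairs they share only a number. With that replicate block 0 genes were called between breeds and 404 had an unadjusted p under 0.05.

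Changes of sign were C1QA (-0.046 with the filter of the study, -0.66 without mixed nuclei), C1QC (-0.22, -1.36, and -0.13 with every nucleus thinned), TYROBP (-0.27, -1.02, and -2.94 with thinning before the rule), TPT1-2 (0.18, the same thinning) and TRHDE (1.75 with 5 markers) in the interaction, CALD1 against NOTCH3 or RGS5 nuclei (0.51 without mixed nuclei), and against other nuclei ESR1 (0.047 with the filter of the study, 0.15 with every nucleus thinned), FN1 (-0.48) and VIM (-0.18), both with thinning before the rule. The mixed nuclei were removed from the members only, and the cause of these changes was not tested. The comparison with NOTCH3 or RGS5 nuclei was not run with 5 markers or with thinning before the rule, since too few goats kept at least 20 nuclei in each sum.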
